A study of Homo sapiens with 18 samples.

Results

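NEAT1 and MALAT1 are long noncoding RNAs of the cell nucleus, transcribed from neighbouring genes on chromosome 11. SFPQ, NONO and PSPC1 encode the related RNA-binding proteins that coat NEAT1 in paraspeckles. These 5 genes were picked by symbol, and all 5 were listed in both cell lines, out of 17110 genes in the HL-60 files and 17475 in those of MOLM-13. The set was drawn up because the NTX-301 difference of NEAT1 was unlike between the lines. Each NEAT1 value that involves NTX-301 is therefore a description with no test.

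Expression was read by total RNA sequencing in HL-60, a promyelocytic leukaemia line, and in MOLM-13, a monocytic acute myeloid leukaemia line that carries a KMT2A-MLLT3 fusion. Cells of each line were exposed for 48 h (day 2) to the solvent DMSO, to decitabine (DAC, an analogue of deoxycytidine that traps DNA methyltransferases) or to NTX-301 (a DNA methyltransferase inhibitor), with 3 wells per group and 18 samples in all. The stated concentration is 30 nM in HL-60 cells but 15 nM in the MOLM-13 cells, and the wording does not settle whether this holds for DAC alone or for both drugs, so dose and line cannot be told apart. Each condition was studied in 1 line per leukaemia type, and nothing says that the 3 wells came from separate cultures, so p-values measure the spread between these samples, which may be technical.

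A paraspeckle forms when NEAT1 is transcribed: SFPQ and NONO bind the nascent RNA, further RNA-binding proteins join, and the long form of NEAT1 becomes the scaffold of the body. Paraspeckles hold back RNAs and proteins in the nucleus, SFPQ among them, and NEAT1 is known to rise under many kinds of cell stress. MALAT1 does not build a body of its own. It gathers at nuclear speckles, where splicing factors are stored.

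NEAT1 and MALAT1 have no poly(A) tail at the mature end. RNase P cuts each behind a short A-rich run, and a pair of U-rich runs upstream folds onto that run as a triple helix that shields the end. The ends are shown because they are what both RNAs share in sequence and bear on the RNase P genes below. The libraries were made from total RNA. Each line holds the last 100 bases of the mature RNA in GENCODE release 29 transcripts, with the bases that both ends share in capitals.
MALAT1 end: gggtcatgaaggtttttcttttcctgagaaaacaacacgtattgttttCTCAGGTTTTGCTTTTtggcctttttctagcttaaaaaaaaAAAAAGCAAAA
NEAT1 end: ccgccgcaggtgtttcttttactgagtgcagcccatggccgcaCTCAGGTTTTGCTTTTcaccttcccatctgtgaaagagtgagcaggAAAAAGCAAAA
The shared runs were 16 and 11 bases long. The next 58 bases of the MALAT1 transcript, given below, are released by the same cut as the tRNA-like mascRNA.
mascRNA: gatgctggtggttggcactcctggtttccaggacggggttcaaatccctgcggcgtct
The mascRNA row sat near 0 on the log2 scale, at values that 64 genes shared in every HL-60 sample and 61 in every MOLM-13 sample (equal within 1e-06), so nothing is read from it.

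NEAT1 also ends early, at a poly(A) site that gives the short form. CPSF6 and NUDT21, subunits of a cleavage factor that binds TGTA (UGUA in RNA), favour that site, and HNRNPK counters it. The stretch around the site, at positions 3606 to 3735 of the 22743-base long transcript, is shown with both TGTA and the poly(A) signal AATAAA in capitals.
NEAT1 short-form end: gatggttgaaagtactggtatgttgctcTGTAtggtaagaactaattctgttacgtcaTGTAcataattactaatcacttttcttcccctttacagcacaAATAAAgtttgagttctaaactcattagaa
It held 2 TGTA on the strand of the RNA, and 17.3% of the 22614 windows of this length along the transcript held as many or more. The files give 1 value per gene, so the short and the long form of NEAT1 cannot be told apart, and the short form lies wholly within the long one.

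The deposited values were normalized on a log2 scale. Medians over genes lay between 9.52 and 9.56 in the HL-60 samples and between 9.79 and 9.84 in the MOLM-13 samples, and the median SD between replicates was between 0.027 and 0.043 over the 6 groups. The read depth is unknown. The lines appeared to have been normalized apart, so levels are compared within a line and only differences between lines. All 5 granulocytic markers (MPO, ELANE, PRTN3, AZU1, CTSG) were listed in both lines, and the 5 markers of MOLM-13 were all listed there, against 3 of 5 in HL-60. Of the 12 markers of T cells, B cells, epithelium and fibroblasts, 1 was listed in HL-60 and 2 in MOLM-13. In bulk RNA, fewer cells that make a transcript and less of it per cell cannot be told apart.

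NEAT1 was higher with either drug in MOLM-13, whereas in HL-60 it lay lower with NTX-301 and slightly higher with DAC. In MOLM-13 its log2 value was 15.27, 15.19 and 15.33 in DMSO, 15.9955, 16.10 and 16.21 with DAC, and 16.04, 16.20 and 16.25 with NTX-301. Every treated MOLM-13 sample lay above every DMSO sample, and the 2 drug groups overlapped. In HL-60 the values were 15.25, 15.23 and 15.16 in DMSO, 15.41, 15.54 and 15.21 with DAC, and 14.90, 14.74 and 14.67 with NTX-301. The 3 NTX-301 samples lay below all others of that line, and the lowest DAC sample fell among the DMSO samples.

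**Figure D1:**
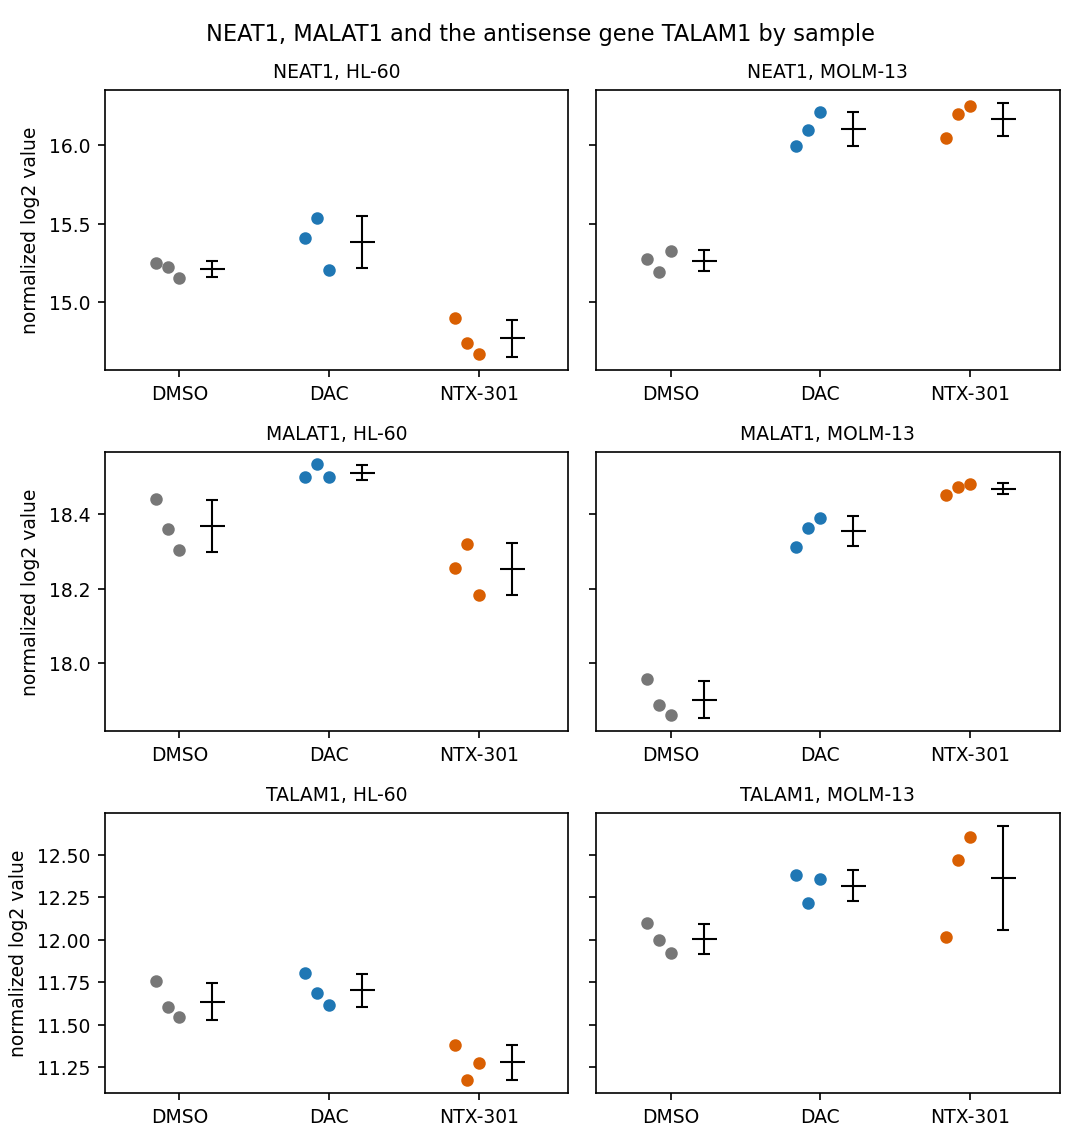
Normalized log2 value (vertical axis) of NEAT1, MALAT1 and TALAM1 in every sample of HL-60 (left) and MOLM-13 (right); points are samples and bars the mean and SD of 3. NEAT1 lies near 16.1 in both drug groups of MOLM-13, and in HL-60 its lowest values, 14.67 to 14.90, are those with NTX-301.

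NEAT1 rose with DAC in MOLM-13, by 0.84 on the log2 scale (limma, SE 0.060, adjusted p = 2.307e-06), 1.79-fold on the files' scale. It was the highest DAC difference among the 720 MOLM-13 genes whose mean log2 value reached 14, and the 14th highest of all 17475. In HL-60 the DAC difference was 0.17 (SE 0.067, limma adjusted p = 0.0784). That value missed the threshold of 0.05, and it passed without DAC replicate 3 (0.26, adjusted p = 0.00438), without NTX-301 replicate 1 (0.17, adjusted p = 0.0499) or when each sample was centred on its median (0.18, adjusted p = 0.0435). The DAC effect on NEAT1 was larger in MOLM-13 than in HL-60 by 0.66 (SE 0.10, limma adjusted p = 7.859e-05). These DAC tests of NEAT1, and its ranks, share their DMSO samples with the NTX-301 values that chose the gene. They are therefore not independent of that choice.

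With NTX-301 the NEAT1 difference from DMSO was 0.90 (SE 0.060) in MOLM-13, 1.86-fold, and −0.44 (SE 0.067) in HL-60, 0.737-fold; neither has a test here. The difference between lines came to 1.34, and NTX-301 minus DAC was 0.062 in MOLM-13 and −0.61 in HL-60, again with no test. The 4 NEAT1 differences from DMSO kept their sign under centring and under quantile normalization.

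MALAT1 followed NEAT1 in direction in all 4 contrasts, with smaller differences in 3 of them by more than 0.3 and a nearly equal one for DAC in HL-60. In MOLM-13 its log2 value was 17.96, 17.89 and 17.86 in DMSO, 18.31, 18.36 and 18.39 with DAC, and 18.45, 18.47 and 18.48 with NTX-301. The 3 groups did not overlap there. In HL-60 it was 18.44, 18.36 and 18.30 in DMSO, 18.50, 18.53 and 18.50 with DAC, and 18.25, 18.32 and 18.18 with NTX-301. All DAC samples lay above the DMSO samples, while 1 NTX-301 sample overlapped them.

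In MOLM-13, DAC samples were higher in MALAT1 by 0.45 (limma, SE 0.034, adjusted p = 3.131e-06), and NTX-301 samples by 0.57 (SE 0.034, adjusted p = 4.71e-07). Both calls stood after centring and after quantile normalization. In HL-60 it rose by 0.14 with DAC (adjusted p = 0.00802) and fell by 0.12 with NTX-301 (adjusted p = 0.0152), but under quantile normalization these were −0.18 and 0.00. That method assigns values by rank. MALAT1 kept rank 7 or 8 in every HL-60 sample and ranks between 7 and 12 in MOLM-13 (not per length). For a gene this high, quantile normalization is therefore a poor check in either line, also where a call stood or was gained. The HL-60 NTX-301 call was lost without DMSO replicate 1 (−0.079) or NTX-301 replicate 3 (−0.081), and without the mean-variance trend (adjusted p = 0.0631). NTX-301 lay below DAC in HL-60 by 0.26 (limma adjusted p = 5.984e-05; 0.18 above it after quantile normalization), and in MOLM-13 it lay above DAC by 0.11 (95% interval 0.040 to 0.19, adjusted p = 0.0646; called after centring, 0.12, and quantile normalization, 0.17).

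The drug effects on MALAT1 differed between the lines. The effect in MOLM-13 exceeded that in HL-60 by 0.31 for DAC (SE 0.052, limma adjusted p = 0.00018) and by 0.68 for NTX-301 (SE 0.052, adjusted p = 9.282e-09). Both differences kept their call under centring. They also kept it under quantile normalization, which sets MALAT1 by rank and so lends no further support. The log2 ratio of NEAT1 to MALAT1 shifted against DMSO by 0.39 (DAC) and 0.33 (NTX-301) in MOLM-13 cells and by 0.032 and −0.32 in HL-60 cells.

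TALAM1 is transcribed antisense to MALAT1 and is known to aid the maturation of its 3′ end. The kit keeps strand, but the use of strand in counting is not given in the sources used here, so reads of the pair may be shared. In HL-60 TALAM1 was 11.76, 11.60 and 11.54 in DMSO, 11.80, 11.69 and 11.62 with DAC, and 11.38, 11.18 and 11.28 with NTX-301. It fell by 0.36 with NTX-301 (SE 0.060, limma adjusted p = 0.000292), where the groups did not overlap. In MOLM-13 it was 12.10, 11.998 and 11.92 in DMSO, 12.38, 12.21 and 12.36 with DAC, and 12.02, 12.47 and 12.60 with NTX-301. The DAC difference was 0.31 (limma adjusted p = 0.0501), and it passed the threshold after centring (0.28, adjusted p = 0.0331), after quantile normalization (0.36, adjusted p = 0.0442), with a mean log2 of at least 5, with only the groups compared, and without NTX-301 replicate 1 or 3. The NTX-301 difference was 0.36 (limma adjusted p = 0.0233). NTX-301 replicate 1 lay among the DMSO samples, and this call was lost without the mean-variance trend and without DMSO replicate 2 (0.36), DMSO replicate 3 (0.32), NTX-301 replicate 2 (0.31) or NTX-301 replicate 3 (0.24). The NTX-301 effect on TALAM1 was larger in MOLM-13 by 0.71 (SE 0.14, limma adjusted p = 0.000629), and that for DAC by 0.25 (adjusted p = 0.215; called with only the groups compared).

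Of the 10 nearest listed genes, 5 on each side of the pair, none was called higher in any of the 4 contrasts. In HL-60 1 was called lower with DAC and 4 with NTX-301 (12.6% and 19.2% of all genes), and in MOLM-13 1 and 2 (21.2% and 24.8%). ZNRD2, which lies on the MALAT1 side, fell in all 4, by 0.15, 0.26, 0.17 and 0.29 on the log2 scale (HL-60 first, DAC before NTX-301). Its DAC calls were lost without DMSO replicate 2 in HL-60 (−0.13) and without DAC replicate 3 in MOLM-13 (−0.14). MIR612, whose hairpin lies within NEAT1, was the 1 listed gene with its start after that of NEAT1 and before that of MALAT1. Its values stayed within 0.002 of DMSO near the low end of the scale, where values are compressed.

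**Figure D2:**
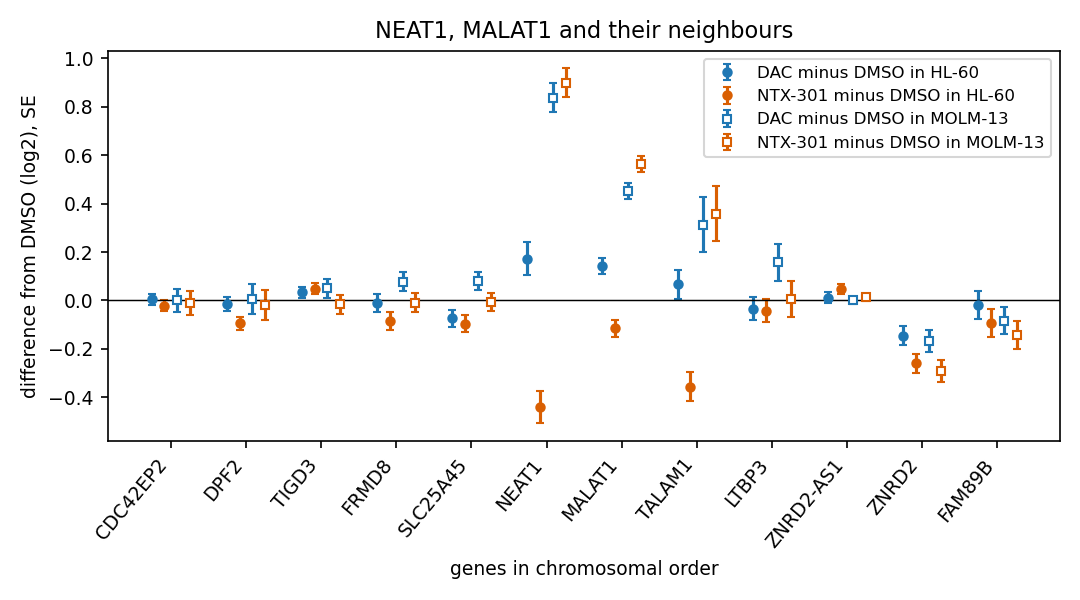
Difference from DMSO (log2, with SE) for NEAT1, MALAT1, TALAM1 and 9 of the 10 nearest listed genes, in chromosomal order; filled circles are HL-60, open squares MOLM-13, blue DAC and orange NTX-301. The MOLM-13 values of NEAT1 (0.84 and 0.90) and MALAT1 (0.45 and 0.57) lie above those of every neighbour shown.

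The differences of the 3 core proteins were between −0.19 and 0.088. SFPQ, which is needed for NEAT1 to be stable and for the body to form, was 15.55, 15.54 and 15.51 in HL-60 DMSO samples, 15.51, 15.52 and 15.46 with DAC, and 15.35, 15.38 and 15.38 with NTX-301. MOLM-13 cells had 15.56, 15.59 and 15.51 in DMSO, 15.38, 15.35 and 15.37 with DAC, and 15.42, 15.45 and 15.42 with NTX-301. Except for DAC in HL-60, the treated samples lay below all DMSO samples of their line.

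SFPQ fell in HL-60 under NTX-301, by 0.17 (limma, SE 0.020, adjusted p = 1.229e-05), and in MOLM-13 under DAC, by 0.19 (SE 0.025, adjusted p = 0.00015). The MOLM-13 DAC fall was smaller under quantile normalization, though still called. That method moved genes with a mean of 12 to 16 up by 0.079 at the median in this contrast. Its fall by 0.12 with NTX-301 in MOLM-13 (SE 0.025, limma adjusted p = 0.00186) became 0.0054 under quantile normalization. With DAC in HL-60 the difference was −0.039 (adjusted p = 0.176). In HL-60 NTX-301 lay 0.13 below DAC (SE 0.020, limma adjusted p = 0.000204). In MOLM-13 it lay 0.065 above DAC (limma adjusted p = 0.150), which was called under quantile normalization (0.084, adjusted p = 0.0356). The NTX-301 effect did not differ between lines by the test (0.044, 95% interval −0.023 to 0.11, limma adjusted p = 0.295), and the DAC effect was lower in MOLM-13 by 0.15 (adjusted p = 0.00138; −0.077 and not called under quantile normalization).

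NONO, the partner of SFPQ, was 14.93, 14.96 and 14.98 in HL-60 DMSO samples, 14.97, 14.97 and 15.00 with DAC, and 14.98, 14.97 and 15.00 with NTX-301. Those 3 groups overlapped, with differences from DMSO of 0.025 and 0.027 (limma adjusted p = 0.389 and 0.296). Under quantile normalization the NTX-301 difference was 0.063 and called (limma adjusted p = 0.00415). In MOLM-13 it was 15.09, 15.10 and 15.12 in DMSO, 14.98, 14.99 and 14.95 with DAC, and 14.99, 14.95 and 14.95 with NTX-301. All treated samples there lay below the DMSO samples.

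In MOLM-13 NONO fell by 0.13 under DAC (limma, SE 0.022, adjusted p = 0.000877) and 0.14 under NTX-301 (SE 0.022, adjusted p = 0.000291), yet quantile normalization left −0.0067 and −0.0096, neither called. Against HL-60, the effect was lower in MOLM-13 by 0.15 for DAC (limma adjusted p = 0.000409) and by 0.17 for NTX-301 (adjusted p = 8.875e-05). Under quantile normalization these were −0.055 (not called) and −0.087 (called).

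PSPC1, which pairs with NONO or SFPQ and is the protein whose spots gave the body its name, held almost the same value in the HL-60 DMSO samples, 12.851 to 12.854. It was 12.90, 12.94 and 12.95 with DAC and 12.95, 12.92 and 12.95 with NTX-301 there, above DMSO in every sample. In MOLM-13 it was 13.94, 13.95 and 13.91 in DMSO, 13.91, 13.90 and 13.91 with DAC, and 13.86, 13.88 and 13.88 with NTX-301, so that DAC overlapped DMSO and NTX-301 lay below it.

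In HL-60 PSPC1 rose by 0.076 under DAC (limma, SE 0.021, adjusted p = 0.0165) and 0.088 under NTX-301 (SE 0.021, adjusted p = 0.00374). The first call was lost without DAC replicate 2 (0.070) or DAC replicate 3 (0.066), and the second after centring (0.057). In MOLM-13 the DAC difference was −0.026 (limma adjusted p = 0.368) and the NTX-301 fall 0.062 on the log2 scale (adjusted p = 0.0315). Quantile normalization gave 0.063 (called as a rise, limma adjusted p = 0.0454) and 0.035 (not called) instead. The NTX-301 call of the main fit was lost in 5 of 9 fits that left out 1 sample, with values between −0.054 and −0.065. The effect was lower in MOLM-13 than in HL-60 by 0.10 for DAC (limma adjusted p = 0.00677; −0.035 and not called after quantile normalization) and by 0.15 for NTX-301 (adjusted p = 0.000177).

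**Figure D3:**
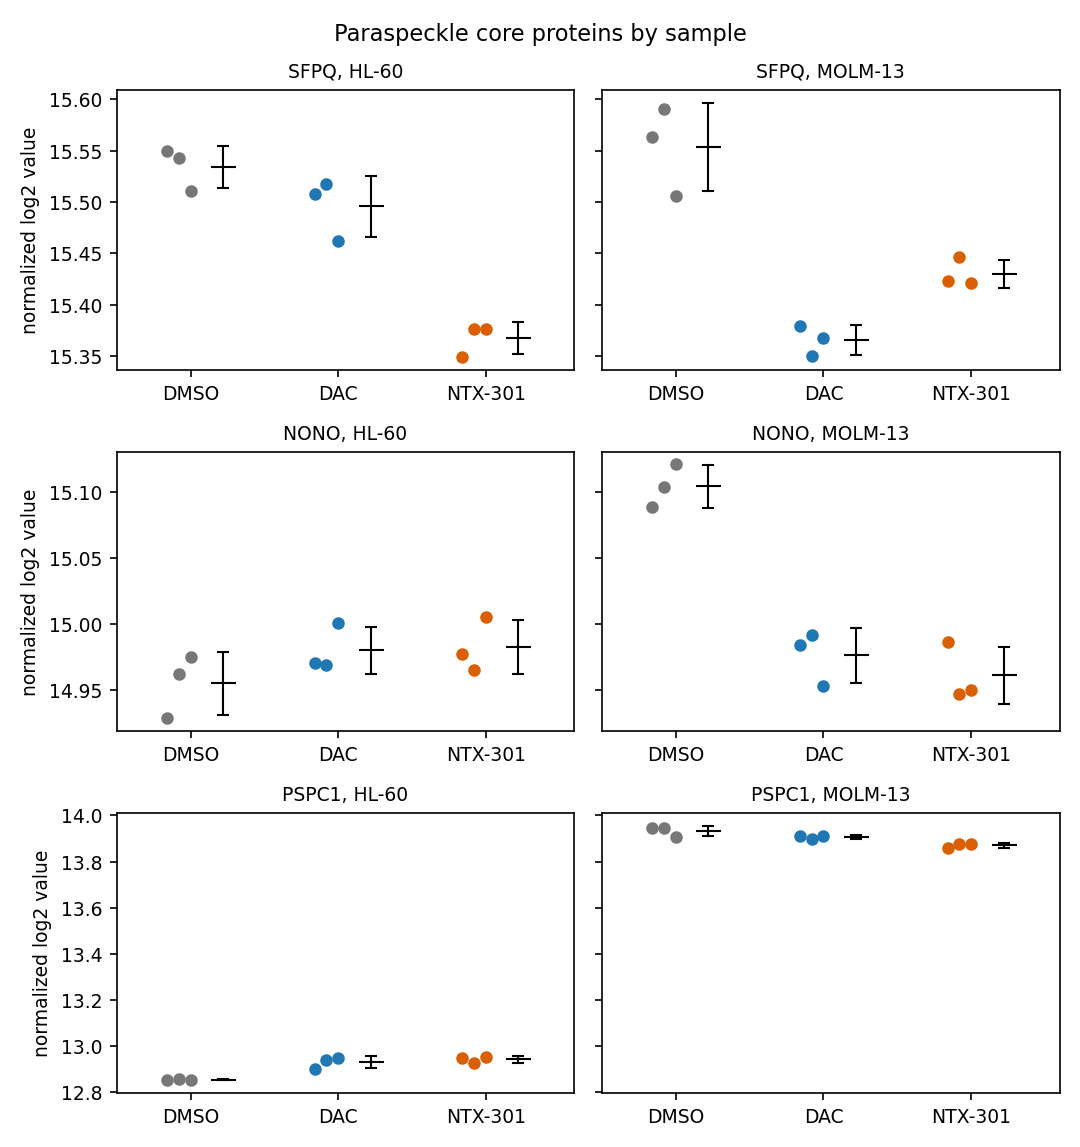
Normalized log2 value (vertical axis) of SFPQ, NONO and PSPC1 in every sample of HL-60 (left) and MOLM-13 (right); points are samples and bars the mean and SD of 3. NONO stays between 14.93 and 15.00 in all HL-60 samples, and in MOLM-13 its DMSO samples (15.09 to 15.12) lie above all treated ones.

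The NTX-301 groups of all 5 genes lay apart from DMSO in MOLM-13, as for 55.8% of all genes, and those of 3 in HL-60 (47.2%); NEAT1, which was chosen on these contrasts, lay higher in MOLM-13 (27.2% of genes lay apart and higher) and lower in HL-60 (24.0% apart and lower). Leaving NEAT1 aside, NTX-301 lay apart from DAC for MALAT1 and SFPQ in HL-60 (44.4% of all genes). In MOLM-13 it lay apart for MALAT1, SFPQ and PSPC1 (27.3%). DAC lay apart from DMSO for MALAT1 and PSPC1 in HL-60, as for 38.5% of all genes. In MOLM-13 DAC lay apart from DMSO for NEAT1, MALAT1, SFPQ and NONO, as for 47.9% of all genes.

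Over the members, 2 of 5 were called with DAC in HL-60, where 24.2% of all genes were, and 4 of 5 in MOLM-13, where 36.6% were. With NTX-301, leaving NEAT1 untested, 3 of 4 were called in HL-60 (37.4% of all genes; 2 after centring) and 4 of 4 in MOLM-13 (45.1%), where quantile normalization left 1. Between the drugs, 2 of 4 differed in HL-60 (30.4%) and 0 of 4 for MOLM-13 cells (7.42%, 1 after centring and 2 under quantile normalization). In the main fit MALAT1 and SFPQ had there an unadjusted limma p of 0.00574 and 0.0255. For the difference between lines, 5 of 5 were called for DAC (30.0%, and 2 under quantile normalization) and 3 of 4 for NTX-301 (40.0%). The DAC counts include NEAT1, whose DAC tests share DMSO samples with the values that chose it.

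**Figure D4:**
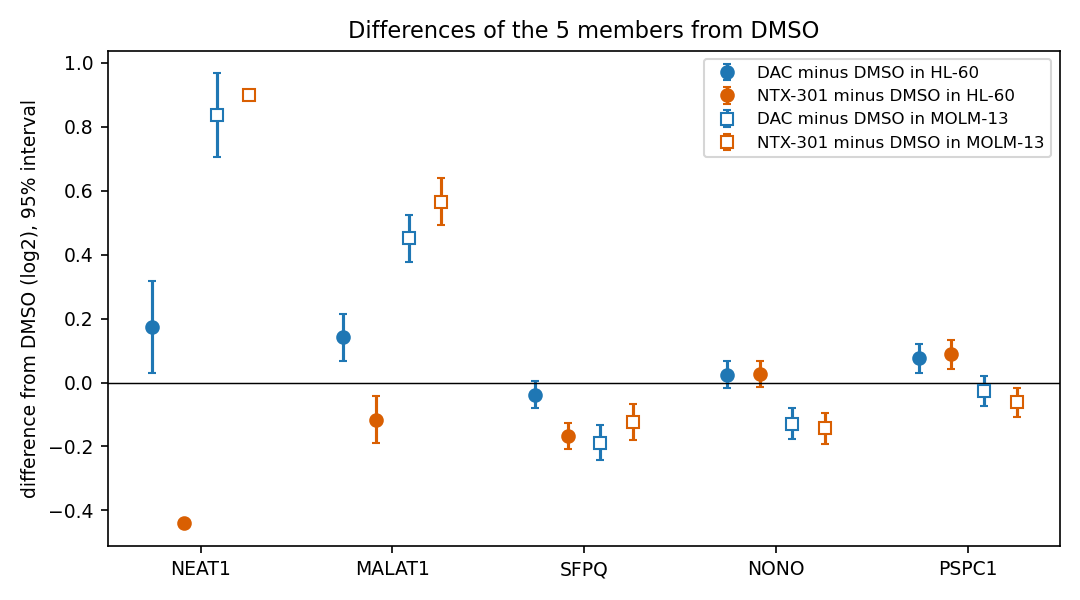
Difference from DMSO (log2, vertical axis) of the 5 genes with its 95% interval from limma, which is left out for NEAT1 with NTX-301, chosen on those values; filled circles are HL-60, open squares MOLM-13, blue DAC and orange NTX-301. NEAT1 spans −0.44 to 0.90, while SFPQ, NONO and PSPC1 stay between −0.19 and 0.088.

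The wider set of 40 paraspeckle proteins, of which 38 were listed in each line, was lower more often than higher. With DAC, 3 were called higher and 13 lower in HL-60 (all genes: 11.6% higher, 12.6% lower), and 2 higher and 19 lower in MOLM-13 (15.4% and 21.2%). With NTX-301, 8 were higher and 18 lower in HL-60 (18.3% and 19.2%), and 2 higher and 22 lower in MOLM-13 (20.3% and 24.8%). The list's median difference was −0.038, −0.085, −0.047 and −0.13 in that order, and the median of all genes was within 0.0034 of 0. All genes include low, compressed ones, so these medians are not matched for level. Under quantile normalization the list medians were −0.024, −0.046, −0.007 and −0.042. Centring left 3 higher and 11 lower, 1 and 23, 3 and 23, and 2 and 25 in the order of the counts, and quantile normalization 3 and 10, 1 and 15, 8 and 12, and 4 and 13. Without DAC replicate 1, 10 were called with DAC in HL-60.

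**Figure D5:**
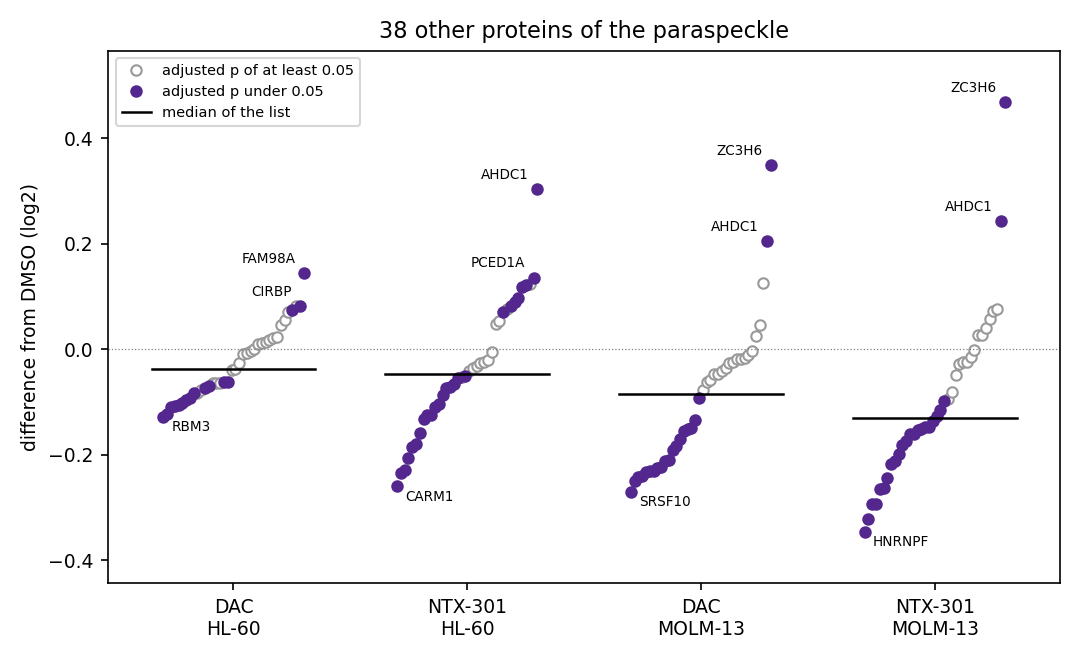
Difference from DMSO (log2, vertical axis) of the 38 listed paraspeckle proteins other than SFPQ, NONO and PSPC1, sorted within each contrast; filled points passed an adjusted p of 0.05, and the bar is the list's median. The medians run from −0.038 (DAC, HL-60) to −0.13 (NTX-301, MOLM-13), and ZC3H6 and AHDC1 are the 2 called higher in MOLM-13.

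Among the proteins that act on the choice of the NEAT1 end, HNRNPK fell in all 4 contrasts, with log2 differences of −0.075 and −0.055 in HL-60 (DAC, then NTX-301) and −0.18 and −0.20 in MOLM-13. Under quantile normalization the HL-60 values were −0.032 and −0.0024, neither called, and the NTX-301 call there was also lost in 4 of 9 fits without 1 sample. NUDT21 fell in MOLM-13 by 0.23 with DAC and by 0.29 with NTX-301 (limma adjusted p = 3.814e-05), and in HL-60 its differences were 0.021 and −0.042, neither called. The effect on NUDT21 was lower in MOLM-13 by 0.25 for both drugs (limma adjusted p = 0.00018 and 0.000114). CPSF6 fell by 0.11 with NTX-301 in HL-60 and by 0.15 with either drug in MOLM-13, where quantile normalization left −0.049 and −0.033, not called. CPSF7, the other large subunit of that factor, rose in HL-60 by 0.074 and 0.089, and was at −0.025 and −0.024 in MOLM-13, not called. The DAC call of CPSF7 was lost in 4 of 9 fits without 1 sample (0.065 to 0.084), and the NTX-301 call after centring (0.057).

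Other scaffold and shell proteins moved as follows. DAZAP1, needed for paraspeckles to form, fell with NTX-301 by 0.23 in HL-60 and by 0.32 in MOLM-13, and by 0.23 with DAC in MOLM-13. HNRNPF fell in MOLM-13 by 0.25 and 0.35. RBM14, which bridges paraspeckle parts, fell in HL-60 by 0.070 (lost without DMSO replicate 1 or DAC replicate 3) and 0.18, and its MOLM-13 values of −0.077 and −0.081 were not called. CARM1, the methyltransferase known to modify NONO, fell in all 4, by 0.11 and 0.26 in HL-60 and by 0.13 and 0.21 in MOLM-13. Its DAC call was lost in 4 of 9 fits without 1 sample in HL-60 (−0.14 to −0.082), and in 3 of 9 (−0.17 to −0.10) and under quantile normalization (−0.087) in MOLM-13. On the other side, ZC3H6 rose in MOLM-13 by 0.35 and 0.47, and AHDC1 rose with NTX-301 in HL-60 by 0.30 (limma adjusted p = 6.636e-05). AHDC1 was also called higher in MOLM-13 (0.21 and 0.24), where the call was lost in 6 and 4 of 9 fits without 1 sample and under quantile normalization (0.13 and 0.17), and for DAC after centring (0.17).

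The drug effect on the 38 proteins was lower in MOLM-13 than in HL-60 for 16 and higher for 2 with DAC (17.9% and 12.1% of all genes), and for 13 and 3 with NTX-301 (22.4% and 17.6%). Under quantile normalization these were 9 and 2, and 9 and 6. RUNX3, a transcription factor found in paraspeckles, fell in HL-60 by 0.11 and 0.23, was at 0.13 and 0.058 in MOLM-13 (not called), and the effects differed by 0.23 and 0.29 (limma adjusted p = 0.00221 and 0.000178). Between the drugs, 6 were higher and 14 lower with NTX-301 than with DAC in HL-60 (15.4% and 15.0% of all genes), and quantile normalization gave 9 and 8. For MOLM-13, where 3.01% of all genes were higher and 4.41% lower, the 1 called was FAM98A (−0.11), lost in 8 of 9 fits without 1 sample.

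Of 13 genes for RNase P, RNase Z (ELAC2) and the triple-helix binder METTL16, 10 were called lower with DAC and 9 with NTX-301 in MOLM-13 (21.2% and 24.8% of all genes), none higher, with medians of −0.20 in both. POP7, a subunit of RNase P, fell by 0.31 and 0.36. In HL-60 0 were higher and 2 lower with DAC, and 3 higher and 1 lower with NTX-301 (all genes: 11.6% and 12.6%, then 18.3% and 19.2%). For NTX-301 that split turned to 2 higher and 3 lower after centring and 1 and 2 under quantile normalization. METTL16 fell there by 0.11 and 0.18, and its DAC call was lost under quantile normalization (−0.091) and without DMSO replicate 2 (−0.11), DMSO replicate 3 (−0.10) or DAC replicate 2 (−0.073). Of 17 nuclear speckle proteins, the setting in which MALAT1 gathers, 0, 2, 1 and 1 were higher and 4, 7, 11 and 9 lower (HL-60 first, DAC before NTX-301). The shares of all genes were 11.6%, 18.3%, 15.4% and 20.3% higher and 12.6%, 19.2%, 21.2% and 24.8% lower. Centring gave 1 higher and 11 lower with NTX-301 in HL-60, and quantile normalization 3 and 4 there, and 3 and 5, then 4 and 5, in MOLM-13. SRRM2, a core of that body, rose in MOLM-13 by 0.20 and 0.25, and SRSF7 fell by 0.28 and 0.30.

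Of 17 other long noncoding RNAs that were listed, 1 was higher and 10 lower with DAC in HL-60 (11.6% and 12.6% of all genes), and 3 and 9 with NTX-301 (18.3% and 19.2%). In MOLM-13 5 were higher and 2 lower with DAC (15.4% and 21.2%; 5 and 5 after centring), and 7 and 5 with NTX-301 (20.3% and 24.8%). The effect was higher in MOLM-13 than in HL-60 for 7 and lower for 2 with DAC (12.1% and 17.9% of all genes), and for 9 and 1 with NTX-301 (17.6% and 22.4%). LINC-PINT fell in HL-60 by 0.21 and 0.35 and rose in MOLM-13 by 0.26 and 0.37, a difference of 0.47 and 0.72 (limma adjusted p = 1.256e-05 and 3.514e-08). KCNQ1OT1, an imprinted nuclear RNA, rose in all 4 (0.25, 0.23, 0.55 and 0.73). PVT1, which lies beside MYC, rose in MOLM-13 by 0.36 and 0.54 and fell with DAC in HL-60 by 0.11 (lost in 5 of 9 fits without 1 sample). DANCR fell in MOLM-13 by 0.38 and 0.47 and SNHG1 by 0.30 with either drug, and NORAD fell with NTX-301 in HL-60 by 0.33.

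Of the listed genes known to act on NEAT1 transcription, 1 of 3 was called with each drug in HL-60 (24.2% and 37.4% of all genes). In MOLM-13 it was 1 of 5 with DAC and 0 of 5 with NTX-301 (36.6% and 45.1%). HIF1A fell with DAC in both lines, by 0.095 in HL-60 (lost without DMSO replicate 3 or DAC replicate 3) and by 0.23 in MOLM-13, and with NTX-301 in HL-60 by 0.072 (lost in 5 of 9 fits without 1 sample and under quantile normalization, −0.057). Its NTX-301 value in MOLM-13 was −0.092, not called, and passed the threshold after centring (−0.12). In the main fit HSF1 and ATF2 were called in no contrast with DMSO, and EPAS1, listed for MOLM-13 alone, in neither there. ATF2 with DAC in MOLM-13 (−0.11) passed the threshold without DMSO replicate 1 (−0.14) or DAC replicate 1 (−0.16). Of the genes reported to respond to NEAT1 through SFPQ, CXCL8 moved with NEAT1 in sign in HL-60: 14.26 to 14.37 in DMSO, 14.66 to 14.75 with DAC and 13.24 to 13.35 with NTX-301. In MOLM-13, where NEAT1 was higher with both drugs, CXCL8 rose with DAC by 0.41 (limma adjusted p = 0.027; lost without DMSO replicate 3, 0.27, or DAC replicate 1, 0.25) and lay at −0.21 with NTX-301 (adjusted p = 0.195; −0.35 and called without DMSO replicate 3). DDX60 rose with NTX-301 by 0.19 in HL-60, where NEAT1 lay lower, and by 0.15 in MOLM-13, and RIGI by 0.17 in MOLM-13. Opposite in sign to NEAT1 in HL-60 were also DDX60 with DAC (−0.10) and RIGI (−0.10 with DAC, 0.096 with NTX-301), not called. DDX60 with DAC passed the threshold without DAC replicate 2 (−0.14), and RIGI with NTX-301 without NTX-301 replicate 3 (0.15).

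Over the 18 samples, each set against the DMSO mean of its line, the gene most like NEAT1 among 9702 was LOC646358 (Pearson r = 0.98), and PLEKHM3 (0.976), IMMP2L and SLC15A2 (both 0.97) were also among the 5 most alike. MALAT1 came 6th (r = 0.967) and TALAM1 204th (0.888). Over all 18 samples NONO ran opposite to NEAT1 (r = −0.919, rank 9338 of 9701) and PSPC1 less so (−0.763, rank 7879), with SFPQ at −0.32 (rank 4977). Each r was taken on the deposited scale alone. Under quantile normalization the MOLM-13 differences of NONO were −0.0067 (DAC) and −0.0096 (NTX-301), and those of PSPC1 were 0.063 and 0.035. In HL-60 NONO was not called (0.025 with DAC, 0.027 with NTX-301), and with DAC NONO and PSPC1 (0.076) shared the sign of NEAT1. The NEAT1 values with NTX-301 that chose the gene enter each r with NEAT1. The genes most like MALAT1 were PIAS2, PLEKHM3, ZMAT3, LOC107987081 and ATF7 (r between 0.969 and 0.976). These values describe 18 samples in 6 groups that share line, library and DMSO mean, and they carry no test.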

How the data were processed

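Total RNA of 18 samples (6 groups of 3) was sequenced with a stranded kit, per the labels' protocols. The authors deposited 1 normalized log2 value per gene and sample; the log2 unit was read from the values. Per the submitters' processing notes, FastQC, Trimmomatic 0.38, HISAT2, StringTie and hg19 were used; counting, strand use and normalization are not given in the sources used here. Low genes are compressed: the median range over 9 samples was 0.021 at a mean of 0 to 3 and 0.21 at 8 to 12 in HL-60, so folds are on the files' scale.

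Differences were fitted with limma 3.58.1 in R 4.3.3 (lmFit, eBayes with trend, two-sided) on all 9 samples of a line with 1 mean per group, over genes with a log2 value of at least 0 in 3 samples (17046 in HL-60, 17475 in MOLM-13). The difference between lines used 1 fit of 18 samples over 15474 genes. The Benjamini-Hochberg adjustment ran over every gene in a fit (threshold 0.05); intervals cover 95%. The fit was tested on simulated data. Alternatives were centring, quantile normalization, a mean log2 of at least 5, no filter, no trend, only the groups compared, a replicate block and leaving out each sample.

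The members and lists were chosen with earlier results of these data known. Named genes were the members, the called genes of each list with the largest differences (3 per direction for paraspeckle proteins, 2 for others), and the 5 most alike by Pearson r. NUDT21, CPSF6 and HNRNPK in some contrasts, RBM14, and further contrasts of named genes, run through the same alternatives, were added after their values were seen. Sequences come from GENCODE release 29 (GRCh38), by transcript position, and gene order from the RefSeq table of GRCh38.p14, for names only; some genes the rule names are not reported here. No coordinates are given because the files' build differs.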

Additional observations from a re-analysis of the deposited data

Results flagged for a closer look

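The drug effect differed between the lines for several of the genes, as tested by the difference of effects (MOLM-13 minus HL-60, log2). For DAC, the limma fit gave NEAT1 0.66 (adjusted p = 7.859e-05). This NEAT1 test shares its DMSO samples with the NTX-301 values that chose the gene. The same DAC fit by limma gave MALAT1 0.31 (adjusted p = 0.00018), SFPQ −0.15 (adjusted p = 0.00138), NONO −0.15 (adjusted p = 0.000409) and PSPC1 −0.10 (adjusted p = 0.00677). For NTX-301, the limma fit gave MALAT1 0.68 (adjusted p = 9.282e-09), NONO −0.17 (adjusted p = 8.875e-05) and PSPC1 −0.15 (adjusted p = 0.000177). The NTX-301 difference of NEAT1 (1.34) was not tested: all 3 NTX-301 samples lay above the DMSO samples in MOLM-13 and all 3 below them in HL-60, and this difference chose the gene.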

How the results depend on the processing

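The main limits are the scaling, single samples and the unknown depth. NEAT1 with DAC in HL-60 (0.17, not called) passed the threshold after centring (0.1756), with a mean log2 of at least 5 (0.1732) and with the replicate block (0.1732), and ran from 0.0975 to 0.2621 without 1 sample. Among the 38 paraspeckle proteins, the count called went from 16 to 10 without DAC replicate 1 (DAC, HL-60), from 20 to 13 without NTX-301 replicate 2 (NTX-301 against DAC, HL-60), and from 18 to 11 under quantile normalization (DAC, difference between lines). For NTX-301 against DAC in MOLM-13 it was 1, and 0 after centring, without trend, with only the groups compared or with the block, 3 under quantile normalization or with a mean of at least 5, and 0 to 2 without 1 sample. All genes called there numbered 1297, and 817 with the block, 767 without DAC replicate 1, 479 without NTX-301 replicate 2, 462 without NTX-301 replicate 3, and 1322 without DMSO replicate 1. The cause was not tested.

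Sign changes under quantile normalization were MALAT1 in HL-60 (DAC −0.178, NTX-301 minus DAC 0.178), SFPQ (DAC in HL-60 0.0015, NTX-301 in MOLM-13 0.0054), PSPC1 in MOLM-13 (DAC 0.0627, NTX-301 0.0349), ATF2 (NTX-301: HL-60 0.0123, MOLM-13 0.0027), and EPAS1 (−0.0116) and HSF1 (0.0169) with NTX-301 in MOLM-13. That method moved MOLM-13 genes with a mean of 12 to 16 up by 0.079 (DAC) and 0.096 (NTX-301) at the median. Sign changes after centring were NONO in HL-60 (NTX-301 −0.0042, NTX-301 minus DAC −0.0315), PSPC1 in HL-60 (NTX-301 minus DAC −0.0215), and in MOLM-13 DDX60 (DAC −0.0134), HSF1 (DAC −0.0253) and EPAS1 (NTX-301 −3e-04). Leaving out 1 sample changed the sign of values that were not called: HSF1 (DAC, −0.0407 to 0.0218 in HL-60 and −0.0079 to 0.0503 in MOLM-13), ATF2 (DAC in HL-60, −0.01 to 0.0143), NONO and PSPC1 (NTX-301 minus DAC in HL-60, −0.0087 to 0.0128 and −0.0027 to 0.022), and in MOLM-13 DDX60 (DAC, −0.0064 to 0.0529) and EPAS1 (DAC, −0.0141 to 0.1061).

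Centring moved the share of called genes that were higher from 48.8% to 27.3% (NTX-301, HL-60), 50.6% to 23.2% (NTX-301 against DAC, HL-60), 42.1% to 25.5% (DAC, MOLM-13) and 45.0% to 32.2% (NTX-301, MOLM-13). Same-numbered replicates deviated together little (correlations −0.095 to 0.135 in HL-60, −0.206 to 0.077 in MOLM-13), with 4 of 9 pairs over 0.1 in HL-60 and 0 of 9 in MOLM-13. The main fits use no pairing by number, and such weak correlations cannot exclude a pairing. Among the members, the block gained the NEAT1 call above and lost that of PSPC1 with NTX-301 in MOLM-13 (adjusted p = 0.0692, limma). With no depth given, precision rests on the spread between replicates.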

Other observations

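Among 20 short abundant noncoding and ribosomal RNAs, 14 were listed. With DAC in HL-60 2 were called lower by limma and none higher (all genes: 12.6% and 11.6%): RN7SK, which holds back transcription elongation, fell by 0.22 and RMRP, a relative of the RNase P RNA, by 0.11 on the log2 scale. Under quantile normalization both differences were 0 and neither was called. That method assigns values by rank, and these rows are very high (mean log2 20.06 and 17.83). An unchanged rank alone gives 0 there, so this is no check of the falls. With NTX-301 in HL-60 7 were higher and none lower (18.3% and 19.2% of all genes, list median 0.049), against 6 and 3 after centring and 4 and none under quantile normalization. In MOLM-13 3 were higher and none lower with DAC (15.4% and 21.2% of all genes, list median −0.10; 3 and 2 after centring), and 4 and none with NTX-301 (20.3% and 24.8%, list median 0.033). The ribosomal precursor row RNA45SN2 rose by 0.56 with NTX-301 in HL-60, and RNA45SN1 rose in MOLM-13 by 0.66 and 0.56. These RNAs come from near-identical gene copies between which reads may be split, so values of single rows are uncertain.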
